A study of Mus musculus with 9 samples.

Results

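The genes described here are the mouse zinc finger genes numbered Zfp600 to Zfp999, most of which encode KRAB zinc finger proteins. They were chosen by name, as rows whose symbol is Zfp followed by exactly 3 digits and nothing else, in the range Zfp600 to Zfp999, and selected on the measured level, as rows with a mean normalised read count of at least 10 over 9 liver libraries. Of 135 rows with such a name, 125 met the level and 10 did not, out of 22701 rows in the table. The mean that chose them covers all groups, and their counts below are a description. The RNA came from the livers of 9 mice at the age of 5 weeks, whose strain background is given as C57BL/6 and 129svPas. The groups were HP1ag_KO (3 livers, without HP1α and with the HP1γ gene deleted in liver), HP1ab_KO (1 liver, without HP1α and with the HP1β gene deleted in liver), HP1a_KO (2 livers, without HP1α) and WT (3 livers). All 3 mutant groups lacked HP1α, and the labels do not say which promoter drove deletion in liver. The labels do not give litters or sex, so p-values measure the spread between these samples. HP1ab_KO had a single library, and its differences have no replicate check.

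Zinc finger proteins of this kind bind DNA through repeated fingers, each folded around a zinc ion held by a pair of cysteines and a pair of histidines. In KRAB zinc finger proteins an amino-terminal KRAB box recruits TRIM28, which brings the histone methyltransferase SETDB1 and HP1 proteins to the bound site. Many of these proteins silence retrotransposons, and their genes lie in clusters that arose by duplication. In mouse and human cells, HP1 proteins and trimethylated histone H3 lysine 9 also cover some of these gene clusters. The comparisons ask how transcripts of these genes differ in liver when HP1α is missing alone or together with HP1β or HP1γ.

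HP1a_KO replicate 1 was sequenced to 16266423 reads in genes and the other 8 libraries to 26375545 to 36161177, and a value is the read count divided by the size factor of its library. Transcripts of the deleted genes were lower but present. Cbx3, which encodes HP1γ, had 380.0, 326 and 343 in HP1ag_KO, against 536, 639 and 641 in WT. Cbx1, which encodes HP1β, had 217 in HP1ab_KO, against 1082, 868 and 803 in WT. It was also below WT in HP1a_KO, where it was not deleted, with 457 and 771. In HP1ag_KO it had 690, 856 and 713 and overlapped WT. Cbx5, which encodes HP1α, had 663, 813 and 753 in HP1ag_KO, 663 in HP1ab_KO and 576 and 501 in HP1a_KO, against 1542, 1167 and 997 in WT. No mutant library of a group lacking one of these proteins overlapped WT for the gene concerned. Reads from outside a deleted part, or from cells that keep the gene, count toward these values. The 5 hepatocyte markers (Alb, Apoa1, Ttr, Cps1 and Hnf4a) were expressed in every library.

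A KRAB box was found in the longest open reading frame of 78 of the 125 genes, as a window of 36 residues with at least 50% identity to a KRAB consensus. No box was found in 45 protein-coding genes, the closest of which reached 38.9%. Zfp783 and Zfp939 are transcribed pseudogenes. The KRAB genes held more fingers, with a median of 12 against 7 in genes without a box. Their transcript levels per kb of exon were lower, with a median of 37.3 normalised reads per kb against 56.7. All 125 genes had a median of 41.4 per kb, against 84.2 over the genes tested. The genes lay on 16 chromosomes, led by chromosome 7 with 29, chromosome 17 with 18 and chromosome 8 with 16, and 78 lay within 500 kb of another one of the 125. Related sequences share reads: 94 genes had under 5% of their 50-base exon words in common with any other gene, 12 had over 25%, and Zfp935, Zfp708 and Zfp960 had over 80%, so their counts depend on how the authors placed ambiguous reads. The libraries were strand-specific, but whether the counting used strand is not given in the sources used here, and 24 genes overlap a gene on the opposite strand.

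The sequences below are from RefSeq (build GRCm38.p6), which matched 106 of the 125 genes, and each holds the 150 bases before the annotated start, read 5′ to 3′ on the gene's strand. Capitals mark the letters CCAATCA, an element that the factor NF-Y is known to bind. The set comprises the 5 genes with the smallest p among those with all HP1ag_KO libraries above WT and the pair of genes that DESeq2 called against HP1a_KO, and the letters were chosen after these sequences were seen.
Zfp872: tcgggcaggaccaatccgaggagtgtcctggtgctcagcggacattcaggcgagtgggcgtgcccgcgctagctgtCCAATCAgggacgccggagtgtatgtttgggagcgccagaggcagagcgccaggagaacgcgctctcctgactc
Zfp938: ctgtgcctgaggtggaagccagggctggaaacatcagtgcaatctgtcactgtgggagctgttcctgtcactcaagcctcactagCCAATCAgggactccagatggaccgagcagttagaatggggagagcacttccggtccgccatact
Zfp873: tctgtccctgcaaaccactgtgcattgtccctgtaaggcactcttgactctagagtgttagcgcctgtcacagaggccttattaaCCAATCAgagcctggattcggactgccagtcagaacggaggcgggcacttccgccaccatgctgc
Zfp808: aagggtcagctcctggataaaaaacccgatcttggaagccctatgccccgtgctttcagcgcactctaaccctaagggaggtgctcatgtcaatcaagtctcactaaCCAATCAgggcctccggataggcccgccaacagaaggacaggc
Zfp605: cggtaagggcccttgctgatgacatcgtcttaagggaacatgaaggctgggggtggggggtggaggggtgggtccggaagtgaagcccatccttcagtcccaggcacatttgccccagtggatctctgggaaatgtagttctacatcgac
Zfp866: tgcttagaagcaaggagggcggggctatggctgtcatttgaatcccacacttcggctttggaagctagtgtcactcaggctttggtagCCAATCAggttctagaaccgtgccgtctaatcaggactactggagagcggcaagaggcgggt
Zfp839: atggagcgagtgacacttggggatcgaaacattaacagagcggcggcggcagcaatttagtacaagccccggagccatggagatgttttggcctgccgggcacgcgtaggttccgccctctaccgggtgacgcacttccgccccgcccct

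These windows are chr9:22188016-22188165 on the plus strand for Zfp872, chr10:82241281-82241430 on the minus strand for Zfp938, chr10:82047973-82048122 on the plus strand for Zfp873 and chr13:62129740-62129889 on the plus strand for Zfp808. They are chr5:110109942-110110091 on the plus strand for Zfp605, chr8:69774912-69775061 on the minus strand for Zfp866 and chr12:110850129-110850278 on the plus strand for Zfp839. The box began 74 bases before the start in Zfp872, 65 in Zfp938 and in Zfp873, 62 in Zfp866 and 43 in Zfp808, while the windows of Zfp605 and Zfp839 did not hold these letters. The RefSeq starts of Zfp872, Zfp808, Zfp866 and Zfp839 lie inside the GENCODE genes. The whole Zfp866 window and parts of the other three are therefore within these genes, and so are the letters in Zfp866 and Zfp872. Over 250 bases before the start and both strands, CCAATCA stood in 25 of 70 promoters of KRAB genes (35.7%) and in 2 of 34 of genes without the box (5.88%). The letters were picked from printed sequences that are counted here, and the 64 KRAB promoters not printed held them in 20 cases (31.2%). It stood in 12.8% of 133 promoters of Zfp1 to Zfp599, in 9.87% of 9879 promoters of genes tested and in 7.65% of all 27025 promoters. The TATA box letters TATAAA stood in 1.43% of the KRAB promoters and 6.77% of those of genes tested, and the ETS core letters CCGGAA in 32.9% and 22.1%. The letters CCAAT, the core of CCAATCA, stood in 62.9% of the KRAB promoters and 36.7% of those of genes tested. A match is a description of the letters and not a shown site. KRAB promoters had a median of 8 CpG pairs in 250 bases, against 15 over genes tested. The median log2 difference in HP1ag_KO against WT was 0.17 for the 25 with the letters and 0.17 for the 45 without. These medians were 0.25 with and 0.16 without in HP1ab_KO against WT, -0.19 and -0.12 in HP1a_KO against WT, and 0.40 and 0.29 in HP1ag_KO against HP1a_KO, and no test between them was made. The plot of lead genes by library shows the expression values of the genes printed above.

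**Figure D1:**
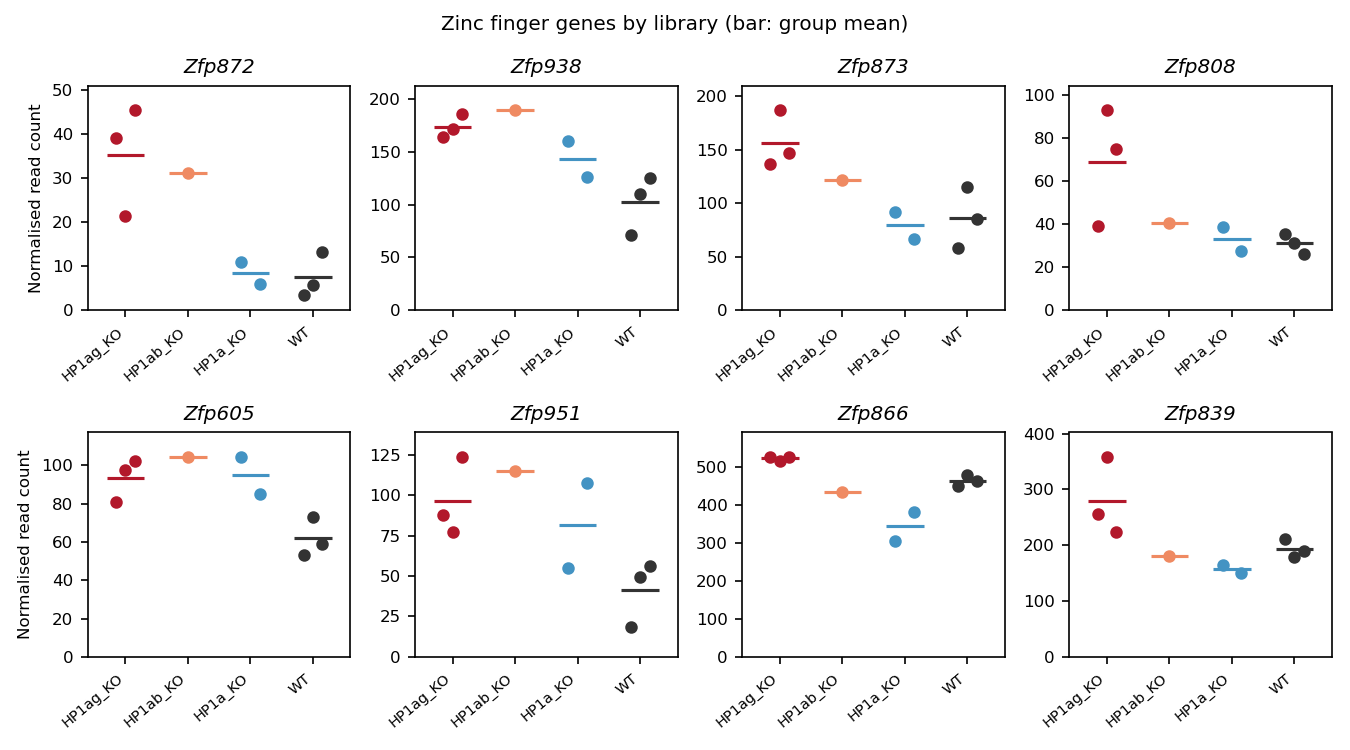
Normalised read count of 8 zinc finger genes in each library, with points for livers, bars for group means and a linear axis from 0 in each panel. Zfp872 lies at 21.3 to 45.4 in HP1ag_KO and at 3.56 to 13.1 in WT, and Zfp866 lies higher in HP1ag_KO than in HP1a_KO without overlap.

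The most abundant genes per kb of exon were Zfp706, at 348 normalised reads per kb, Zfp655 at 266, Zfp869 at 249, Zfp617 at 215 and Zfp809 at 205. Zfp706 encodes a very small protein that promotes the exit of mouse embryonic stem cells from self-renewal. Zfp809 encodes a KRAB protein that silences murine leukaemia virus and related endogenous retroviruses through TRIM28. The least abundant were Zfp831 at 1.21, Zfp934 at 1.76 and Zfp827 at 1.8 per kb. Near the level required, the lowest included genes were Zfp879 with a mean of 10.1, Zfp934 with 10.1 and Zfp641 with 11.3, and the highest left out were Zfp773 with 9.96, Zfp953 with 9.73 and Zfp850 with 7.11. Of the 125 genes, Zfp934, Zfp786 and Zfp872 had a WT mean under 10 and so were included through the mutant libraries.

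In HP1ag_KO against WT, more of these genes had higher than lower values. Of the 125 genes, 89 were higher in HP1ag_KO, against 47.9% of all genes tested, with a median log2 difference of 0.11 against -0.011 over all genes. Among the 78 KRAB genes 60 were higher (median 0.18), and among the 45 without the box 28 were higher (median 0.042). Over all 135 named rows, with no filter on level, 95 were higher and the median was 0.11. The HP1ag_KO libraries lay wholly above WT for 15 genes and wholly below for 4, where the share over all genes tested was 6.46% above and 7.05% below. Single genes did not pass the test across all genes: limma called 0 of 125 (0% of all genes tested were called) and edgeR 0. DESeq2 called 1 of the 125, Zfp872, and 0.715% of all genes tested. At an unadjusted limma p under 0.05, 11 were higher (3.84% of all genes tested) and 2 lower (3.74%). These counts were 5 and 0 when HP1ag_KO replicate 3 was left out, and the 2 lower became 0 also when HP1ag_KO replicate 1 or WT replicate 1 was. RNAs retained in the nucleus differed in the same comparison, with 5 of 7 (median 0.46) higher in HP1ag_KO. DESeq2 called Meg3 (log2 difference 1.99, adjusted p = 0.00949), Rian (1.73, adjusted p = 0.0327) and Neat1 (1.28, adjusted p = 0.0454) among them. limma called 0 of the 7, and their part was not tested. Rian overlapped WT, with 41.9 in HP1ag_KO replicate 1 and 43.8 in WT replicate 2. Neat1 lay wholly above WT in HP1a_KO too, where 2 of the 7 were higher. In bulk liver, fewer cells of a type and less RNA per cell cannot be told apart.

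Zfp872 (ENSMUSG00000074472, chromosome 9, 22188090 to 22202123, plus strand, GRCm38), a KRAB gene with 12 fingers, stood farthest from WT. It had 39.2, 21.3 and 45.4 normalised reads in HP1ag_KO, 31.2 in HP1ab_KO and 11.01 and 6.02 in HP1a_KO, against 3.56, 5.71 and 13.1 in WT. Both double mutant groups lay above every HP1a_KO and WT library, and HP1a_KO overlapped WT. The log2 difference in HP1ag_KO was 2.20 ± 0.51 (SE, limma, adjusted p = 0.43). DESeq2 gave an adjusted p of 0.0454, within a range of 0.0454 to 0.866 over the alternatives. With DESeq2, 1 of 6 fits that each left out a replicate called it: the adjusted p was 0.0184 without WT replicate 3 and otherwise 0.0502 to 0.413. The values are low, and the gene reached the level for inclusion only through the mutants.

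The 3′ part of Zfp872 overlaps 1810064F22Rik on the opposite strand. That gene had 35.5, 97.6 and 145 in HP1ag_KO, 35.2 in HP1ab_KO and 12.8 and 11.2 in HP1a_KO, against 5.34, 12.4 and 36.5 in WT. Its log2 difference was 2.46 in HP1ag_KO against WT, and its HP1ag_KO values overlapped WT at replicate 1. If the counting did not use strand, the reads of both genes cannot be told apart. The other 3 of the 125 genes in its cluster differed less, with log2 differences of 0.43 for Zfp809, 0.13 for Zfp653 and 0.0058 for Zfp810. Zfp809 had 691, 745 and 700.2 in HP1ag_KO, 736 in HP1ab_KO and 488 and 438 in HP1a_KO, against 531, 353 and 777 in WT. The HP1ag_KO values of Zfp809 lay above HP1a_KO and inside the WT range, and leaving out WT replicate 2 or 3 gave differences of 0.15 and 0.71 in that order.

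By unadjusted p, a pair of KRAB genes on chromosome 10 came next among the genes wholly above WT. Zfp938 had 164, 172 and 185 in HP1ag_KO, 189 in HP1ab_KO and 159.6 and 126 in HP1a_KO, against 71.2, 109.5 and 125 in WT. Every mutant library lay above every WT library, and the HP1ag_KO difference was 0.80 ± 0.22 (SE, limma, adjusted p = 0.556). Zfp873 had 137, 187 and 147 in HP1ag_KO, 121 in HP1ab_KO and 91.7 and 67.1 in HP1a_KO, against 57.8, 115 and 85.2 in WT. Here the double mutants lay above WT and HP1a_KO overlapped it, with a difference in HP1ag_KO of 0.90 ± 0.27 (SE, limma, adjusted p = 0.569). Over the alternatives the adjusted p was 0.17 to 0.866 for Zfp938 and 0.246 to 0.866 for Zfp873, lowest with DESeq2 in both.

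The other KRAB genes named for this comparison were Zfp808, Zfp605 and Zfp951. Zfp808 had 39.2, 93.1 and 74.8 in HP1ag_KO, 40.8 in HP1ab_KO and 38.5 and 27.5 in HP1a_KO, against 35.6, 31.4 and 26.2 in WT. HP1ag_KO replicate 1 stood close to WT and the other two far above it, and 28.2% of the exon words of Zfp808 occur in other genes. Zfp605 had 81.1, 97.6 and 102 in HP1ag_KO, 105 in HP1ab_KO and 105 and 85.2 in HP1a_KO, against 53.4, 73.3 and 59.0 in WT. Zfp605 was thus above WT in each mutant library, with log2 differences of 0.59 in HP1ag_KO, 0.76 in HP1ab_KO and 0.61 in HP1a_KO, which share the WT libraries. Zfp951 had 87.5, 77.4 and 124 in HP1ag_KO, 115 in HP1ab_KO and 55.0 and 108 in HP1a_KO, against 18.7, 49.5 and 56.2 in WT. WT replicate 1 was the lowest, and without it the HP1ag_KO difference was 0.83 where it was 1.31 with all libraries.

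Of the 4 genes wholly below WT, 3 lack a KRAB box. Zfp706 had 1417, 1869 and 1429 in HP1ag_KO, 1519 in HP1ab_KO and 1367 and 1811 in HP1a_KO, against 2306, 1916 and 1956 in WT. Every mutant library was below every WT library, and the HP1ag_KO difference was -0.40 ± 0.15 (SE, limma, adjusted p = 0.619). Zfp703, a corepressor whose human counterpart is amplified in breast cancer, had 23.7, 24.7 and 18.9 in HP1ag_KO, 53.5 in HP1ab_KO and 56.9 and 55.9 in HP1a_KO, against 54.3, 29.5 and 29.0 in WT. It lay below WT in HP1ag_KO and above WT in HP1a_KO. The KRAB gene Zfp931 had 134, 207 and 198 in HP1ag_KO, 194 in HP1ab_KO and 134 and 151 in HP1a_KO, against 251, 230.5 and 221 in WT, so that all mutants lay below WT. Zfp771 differed little, with -0.13 on the log2 scale, or -0.081 with equal totals. Over all 6 livers without HP1α, 2 of the 125 genes (Zfp605 and Zfp938) lay wholly above WT, against 1.4% of all genes tested, and 2 (Zfp706 and Zfp931) wholly below, against 1.74%.

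In the single HP1ab_KO liver, none of the 125 was called and more of these genes were above than below the WT mean. Of the 125 genes 87 were higher than the WT mean, against 49.4% of all genes tested, with a median of 0.15 (-0.0034 over all genes). Among KRAB genes 60 of 78 were higher (median 0.21), and without the box 27 of 45 (median 0.077). Marker lists also differed in this liver, and their part was not tested. Neutrophil markers were higher than WT in 2 of 2 (median 1.62) and Kupffer cell markers in 6 of 7 (median 0.51). Erythroid markers were higher in 4 of 5 (median 1.58) and stellate cell markers in 7 of 7 (median 0.34). Sinusoidal endothelial markers were higher in 5 of 5 (median 0.18). The 2 neutrophil markers are S100a8 and S100a9, as Ngp, Ly6g and Mpo had means under 10 and were not tested. In HP1ab_KO Ngp had 1.60, inside the WT range, and Ly6g and Mpo had 0. The erythroid marker Alas2 was below WT, with 2410 in HP1ab_KO against 4710, 2839 and 4448 in WT. The HP1ab_KO liver lay above the WT range for 48 of the 125 genes, where 22.6% of all genes tested did. It lay below that range for 13, where 24.8% did. limma called 0 genes (0%), edgeR 0 (0%), and DESeq2 0 of the 125 (0.0795% of all genes tested), while 6 were higher (2.05%) and 0 lower (1.65%) at an unadjusted limma p under 0.05, the 6 becoming 10 without WT replicate 1. Zfp655, whose human counterpart was found as a partner of the signalling protein VAV, had 2306 in HP1ab_KO, against 1459, 1454 and 1714 in WT. It was higher in HP1ab_KO than in any other library, as HP1ag_KO had 1321, 1364 and 1481 and HP1a_KO 996 and 1321. Zfp709 had 159.8 in HP1ab_KO and 116, 157 and 139 in HP1ag_KO, against 94.3, 112 and 76.8 in WT. Both double mutants lay above WT for this gene. Zfp872, Zfp938, Zfp706 and Zfp931 also lay outside the WT range in HP1ab_KO, with log2 differences of 2.09, 0.92, -0.43 and -0.27 in that order. Below WT were Zfp869, with 356 in HP1ab_KO and 415, 400.0 and 435 in WT, and Zfp932, with 133 in HP1ab_KO and 148, 164 and 204 in WT. Zfp932 encodes a KRAB protein that represses endogenous retroviruses in mouse embryonic stem cells, and 37.0% of its exon words occur in other genes.

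In HP1a_KO against WT, none of the 125 was called and more of these genes had lower than higher values. Of the 125 genes 48 were higher and 77 lower, against 49.7% and 50.3% of all genes tested, with a median of -0.077 (-0.0016 over all genes). The median was -0.028 with 59 genes higher without HP1a_KO replicate 2, and -0.12 with 42 higher without replicate 1. Among KRAB genes 25 of 78 were higher (median -0.13), and without the box 23 of 45 (median 0.007). The KRAB median was -0.084 when either WT replicate 2 or WT replicate 3 was left out. Both libraries lay above WT for 7 genes, where 14.7% of all genes tested did, and below it for 25, where 15.1% did. limma and edgeR called 0 genes (0%), and DESeq2 0 of the 125 (0.628% of all genes tested), while 1 was higher (5.48%) and 8 lower (4.66%) at an unadjusted limma p under 0.05. That 1 was Zfp605, described above. The 8 lower became 2 without HP1a_KO replicate 1 and 5 without WT replicate 2, and the 1 higher became 4 without WT replicate 1 or 2 and 2 without WT replicate 3. Marker lists of other cells differed in this comparison too, and their part was not tested. The neutrophil markers tested, S100a8 and S100a9, were higher in 2 of 2 (median 2.25) and Kupffer cell markers in 7 of 7 (median 0.54). Erythroid markers were higher in 4 of 5 (median 0.82), all but Alas2, and stellate cell markers in 6 of 7 (median 0.17). DESeq2 called S100a8 (log2 difference 2.26, adjusted p = 0.00916), Col1a1 (1.51, adjusted p = 0.00257) and Cd5l (0.79, adjusted p = 0.046) among them.

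The lower genes were led by Zfp866, which had 306 and 383 in HP1a_KO, against 452, 481 and 464 in WT, a difference of -0.44 ± 0.12 (SE, limma, adjusted p = 0.427). Without HP1a_KO replicate 1 it was -0.28. Zfp931 had 134 and 151 in HP1a_KO, against 251, 230.5 and 221 in WT, with a difference of -0.71. Zfp825 had 196 and 242 in HP1a_KO, against 303, 299 and 316 in WT, with a difference of -0.49, and 29.5% of its exon words occur in other genes. Zfp760 had 77.1 and 101 in HP1a_KO, against 198, 254 and 135 in WT, the widest of these differences at -1.10. In all 4 genes both HP1a_KO libraries were below every WT library. On the higher side Zfp791 had 101 and 63.7 in HP1a_KO, against 33.8, 53.3 and 28.1 in WT.

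By genotype, HP1ag_KO and HP1a_KO differ by the added deletion of HP1γ in liver, and both lack HP1α. Their animals also come from separate runs of animal numbers in the labels, which cannot be told apart from genotype here. Cbx5 values lay wholly higher in HP1ag_KO than in HP1a_KO (log2 difference 0.46), and HP1a_KO replicate 1 had the fewest reads. This comparison shares libraries with those above, so its values are not independent of them. Of the 125 genes 95 were higher in HP1ag_KO, against 48% of all genes tested, with a median of 0.24 (-0.016 over all genes). Among KRAB genes 64 of 78 were higher (median 0.31), and without the box 30 of 45 (median 0.095). The HP1ag_KO libraries lay wholly above HP1a_KO for 43 genes, where 17.5% of all genes tested did, and wholly below for 7, where 19.2% did. limma and edgeR called 0 genes (0%), while DESeq2 called 2 of the 125 (3.3% of all genes tested). At an unadjusted limma p under 0.05, 22 were higher (7.8%) and 3 lower (8.38%), and 18 of the 22 are KRAB genes. Leaving out 1 library moved the 22 to 8 without HP1ag_KO replicate 3, 10 without HP1a_KO replicate 1 and 12 without HP1ag_KO replicate 2. In the same comparison neutrophil markers were higher in HP1ag_KO in 0 of 2 (median -1.63), Kupffer cell markers in 1 of 7 (median -0.41), erythroid markers in 0 of 5 (median -1.11), stellate cell markers in 2 of 7 (median -0.085) and nuclear-retained RNAs in 7 of 7 (median 0.55). DESeq2 called Col1a1 (log2 difference -1.51, adjusted p = 0.000768), Meg3 (2.13, adjusted p = 0.00989) and Malat1 (0.90, adjusted p = 0.0066) of these, and their part was not tested.

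The genes that DESeq2 called were Zfp866 and Zfp839. Zfp866 (chromosome 8, 69761326 to 69791178, minus strand), a KRAB gene with 12 fingers that overlaps Gm20422 on its own strand and Atp13a1 on the other, had 529, 518 and 529 in HP1ag_KO and 435 in HP1ab_KO, against 306 and 383 in HP1a_KO. The groups did not overlap, and the difference of HP1ag_KO from HP1a_KO was 0.62 ± 0.12 (SE, limma, adjusted p = 0.127). DESeq2 gave an adjusted p of 0.00834, within a range of 0.00834 to 0.531 over the alternatives, and in 5 DESeq2 fits that each left out a replicate it was 0.0533 to 0.409. Zfp839 (chromosome 12, 110850253 to 110869996, plus strand), which has no KRAB box and overlaps Mpc1-ps on the opposite strand, had 256, 359 and 223 in HP1ag_KO and 181 in HP1ab_KO, against 165 and 151 in HP1a_KO. Its difference was 0.79 ± 0.21 (SE, limma, adjusted p = 0.154). DESeq2 gave an adjusted p of 0.0383, within a range of 0.0383 to 0.537 over the alternatives, and of 5 fits that each left out a replicate 1 called it (0.0351 without HP1ag_KO replicate 3), with 0.0677 to 0.544 in the rest. Neither gene was called in every one of these fits.

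Zfp825 had 331, 278 and 319.8 in HP1ag_KO, against 196 and 242 in HP1a_KO, a log2 difference of 0.50. The HP1ag_KO values of this gene lay around WT, which had 303, 299 and 316. On the lower side Zfp703 had the widest difference, -1.30 ± 0.32 (SE, limma, adjusted p = 0.149). Zfp609, which encodes a protein that works with the cohesin loader and Integrator in neural progenitors, had 325, 285 and 308 in HP1ag_KO, against 510.1 and 621 in HP1a_KO and 566, 319 and 303 in WT. Its difference was -0.88, while WT overlapped both groups. Zfp654 differed by -0.46 and Zfp639 by -0.20, or -0.10 with libraries scaled to equal totals. These 4 lower genes all lack a KRAB box.

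Among genes with better known roles, Zfp746, which encodes PARIS, a parkin substrate that represses the gene of PGC-1α, had 437, 416 and 395 in HP1ag_KO, 431 in HP1ab_KO and 363 and 359.6 in HP1a_KO, against 477, 398 and 367 in WT. HP1a_KO lay below the other groups, which overlapped, and the sign of the HP1ag_KO difference changed with single libraries left out. Zfp644, whose human counterpart works with the histone methyltransferases G9a and GLP, differed by 0.083 in HP1ag_KO against WT, a difference that turned negative without WT replicate 1. Zfp692, whose human counterpart is phosphorylated by AMPK, had 91.1, 146 and 129.6 in HP1ag_KO and 73.4 and 74.0 in HP1a_KO, against 93.4, 101 and 130.2 in WT. Its HP1a_KO values lay below those of HP1ag_KO and WT, with a difference of HP1ag_KO from HP1a_KO of 0.69. Zfp708, which binds a class of endogenous retroviral repeats and shares 94.9% of its exon words with other genes, differed by 0.29 in HP1ag_KO against WT, and Zfp689 by -0.26. Leaving out WT replicate 1 or 3 gave 0.48 and 0.12 for Zfp708 in that order, and the Zfp689 difference was -0.46 and -0.14 without HP1ag_KO replicates 1 and 2. The plot of mean level by library gives the whole group in each liver.

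**Figure D2:**
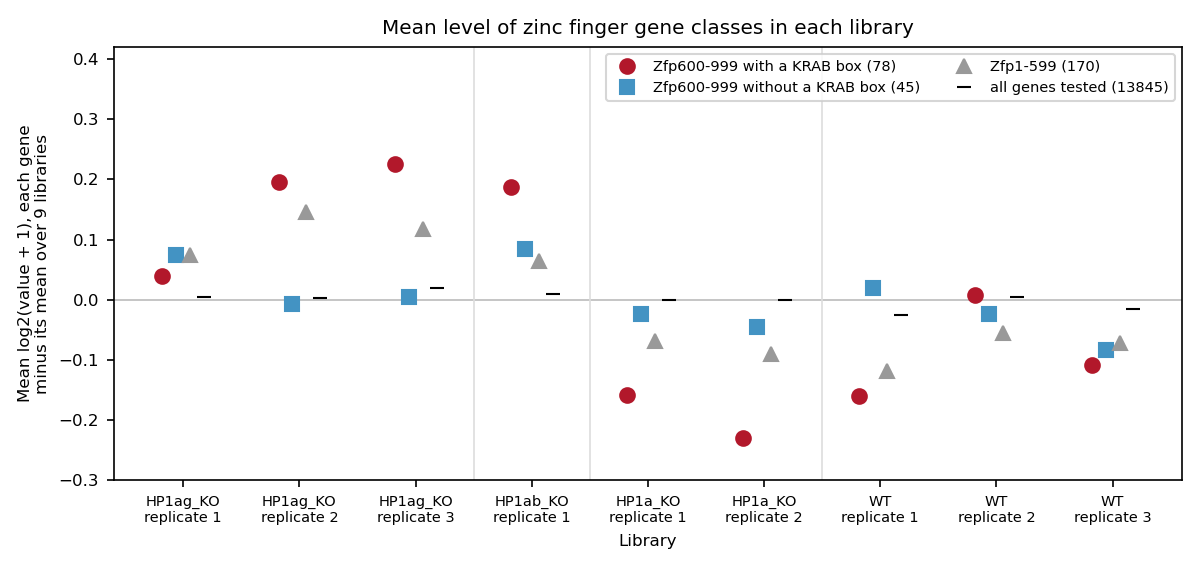
Mean log2(value + 1) of each gene class in each of 9 libraries, with each gene centred on its own mean over the libraries. KRAB genes lie highest in HP1ag_KO replicates 2 and 3 and in HP1ab_KO and lowest in HP1a_KO replicate 2, while the genes without a KRAB box stay between -0.083 and 0.085.

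Averaged over the 78 KRAB genes, the centred log2 level was 0.039, 0.20 and 0.23 in HP1ag_KO replicates 1 to 3, 0.19 in HP1ab_KO and -0.16 and -0.23 in HP1a_KO, against -0.16, 0.0073 and -0.11 in WT. The HP1ag_KO libraries lay above the WT libraries, and replicate 1 of HP1ag_KO stood nearest to WT replicate 2. HP1a_KO replicate 1 and WT replicate 1 were nearly equal. Other measures also varied between libraries, not all in the direction of the KRAB genes, and their part in these levels was not tested. RNAs known to be retained in the nucleus (7 tested, among them Malat1, Neat1 and Meg3) had centred levels of -0.002, 0.93 and 0.72 in HP1ag_KO, -0.33 in HP1ab_KO and -0.16 and -0.38 in HP1a_KO, against -0.40, -0.11 and -0.26 in WT. They were highest in the same HP1ag_KO replicates, 2 and 3, as the KRAB genes, while HP1ab_KO lay within the WT range. Meg3 (30.1, 132 and 121 in HP1ag_KO) and Rian (41.9, 213 and 193) had the widest log2 differences from WT of the 7. Gcgr (log2 difference -0.049) and Nlrp6 (-0.097) were lower in HP1ag_KO than in WT. Kupffer cell markers (7 of 7 higher than WT in HP1ag_KO and in HP1a_KO, 6 of 7 in HP1ab_KO) had summed values of 15927, 10807 and 12157 in HP1ag_KO, 16659 in HP1ab_KO and 17204 and 14741 in HP1a_KO, against 9908, 11119 and 11952 in WT. Summed lymphocyte markers (7 of 7 higher in HP1ag_KO) were 397, 612 and 241 in HP1ag_KO, 201 in HP1ab_KO and 198 and 232 in HP1a_KO, against 144, 269 and 376 in WT. Summed erythroid markers were 5999, 4874 and 7719.7 in HP1ag_KO, 16036 in HP1ab_KO and 9297 and 10808 in HP1a_KO, against 6656, 6874 and 15082 in WT. Of the 5 erythroid markers, 0 were higher in HP1ag_KO than in WT. Among the other lists, the number higher in HP1ag_KO than in WT was 7 of 12 immediate early RNAs (median 0.053), 8 of 16 cell cycle genes (median 0.0056), 2 of 5 hepatocyte markers (median -0.0028), 5 of 7 stellate cell markers (median 0.07), 4 of 5 sinusoidal endothelial markers (median 0.035), 4 of 5 cholangiocyte markers (median 0.17) and 2 of 2 neutrophil markers (median 0.62). No listed marker was at 0 in all libraries.

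**Figure D3:**
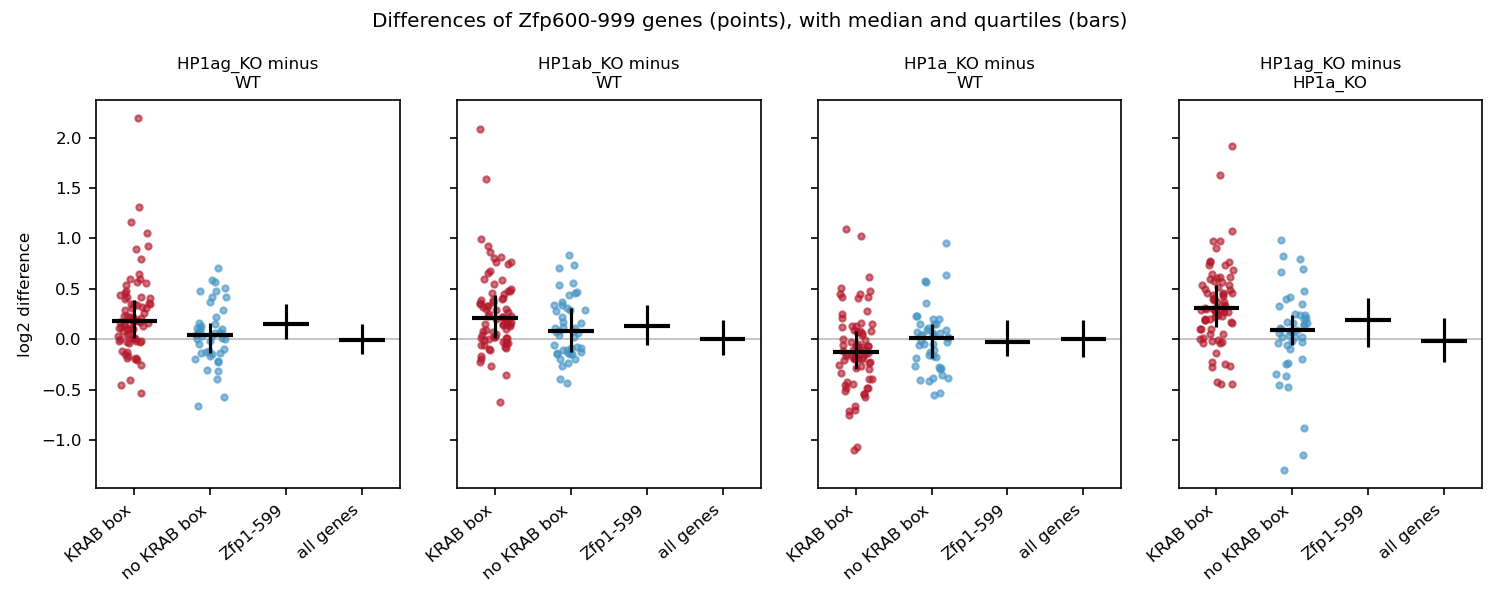
Log2 differences of the 78 genes with and the 45 without a KRAB box (points) in 4 comparisons, with medians (horizontal bars) and quartiles (vertical bars), beside Zfp1 to Zfp599 and all genes tested. The KRAB medians are 0.18 for HP1ag_KO minus WT, 0.21 for HP1ab_KO minus WT, -0.13 for HP1a_KO minus WT and 0.31 for HP1ag_KO minus HP1a_KO.

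The plot of log2 differences by gene class is a description, and no test between the classes was made. Differences in HP1ag_KO against WT ran from -0.53 to 2.20 among KRAB genes and from -0.67 to 0.71 without the box. The upper end is Zfp872, which had a WT mean under 10. The quartiles were 0.0077 and 0.39 among KRAB genes and -0.13 and 0.16 without the box. A log2 difference above 0.5 was met by 13 KRAB genes and below -0.5 by 1, against 4 and 2 genes without the box. In HP1a_KO against WT these counts were 4 and 10 for KRAB genes, against 4 and 2. The 59 KRAB genes within 500 kb of another of the 125 had a median of 0.19 in HP1ag_KO against WT, and the 19 that stood alone 0.14. The 94 genes with under 5% shared exon words had a median of 0.11. The 170 genes named Zfp1 to Zfp599 had medians of 0.15 in HP1ag_KO, 0.13 in HP1ab_KO and -0.029 in HP1a_KO, each against WT. Of these 170, 127 were higher in HP1ag_KO than in WT. HP1ag_KO lay wholly above WT for 17.6% of them, against 12% of the 125 genes and 6.46% of all genes tested. In HP1ag_KO against HP1a_KO their median was 0.19. There 34.7% lay wholly above, against 34.4% of the 125 genes and 17.5% of all genes tested.

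Genes no more than 500 kb apart were joined into clusters, of which 6 held at least 5 of the 125 genes.

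**Figure D4:**
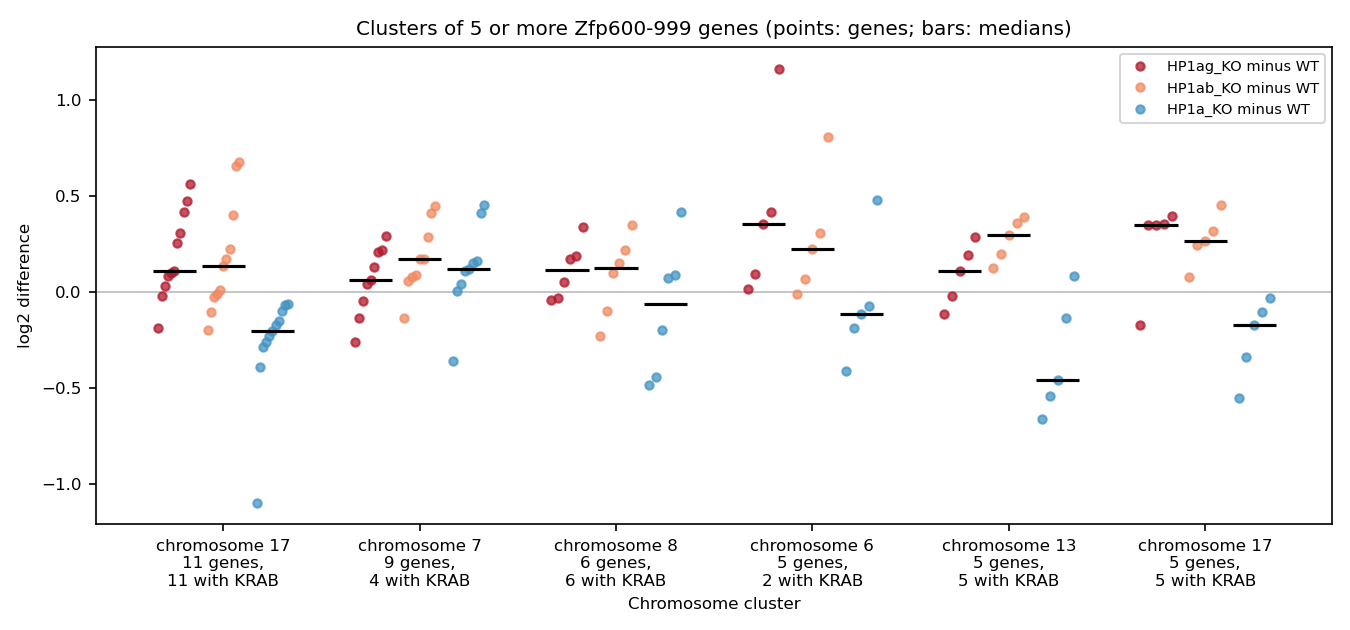
Log2 differences from WT of the genes in 6 chromosome clusters (points), by mutant group, with the median of each cluster as a bar. In the cluster of 11 KRAB genes on chromosome 17 every gene lies below 0 in HP1a_KO, and on chromosome 7 the medians of all 3 groups lie between 0 and 0.2.

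The largest cluster lies on chromosome 17 between 21383748 and 22867134 (GRCm38) and held 11 of the genes, all with a KRAB box. In HP1ag_KO 9 of the 11 were higher than in WT, with a median log2 difference of 0.11 and values that ran from -0.19 for Zfp946 to 0.56 for Zfp677. In HP1a_KO 0 of the 11 were higher (median -0.20), and the lowest was Zfp760. Against HP1a_KO, 10 of the 11 were higher in HP1ag_KO (median 0.39), 9 of them with no overlap of libraries, where 17.5% of all genes tested lay wholly above. Zfp677, its highest gene in HP1ag_KO, had 31.0, 40.4 and 33.1 in HP1ag_KO, 37.6 in HP1ab_KO and 22.02 and 18.1 in HP1a_KO, against 13.3, 29.5 and 30.9 in WT.

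The second cluster of chromosome 17, between 32765496 and 33033402, held 5 KRAB genes with a median of 0.35 in HP1ag_KO, where 4 were higher than in WT, and of -0.17 in HP1a_KO, where 0 were. The 5 KRAB genes on chromosome 13, between 67038596 and 67687071, had medians of 0.11 in HP1ag_KO, 0.30 in HP1ab_KO and -0.46 in HP1a_KO against WT. Among these, the HP1ag_KO differences ran from -0.11 for Zfp712 to 0.29 for Zfp708. The 5 genes on chromosome 6, between 47819266 and 48086593, of which 2 have a KRAB box, were all higher in HP1ag_KO than in WT (median 0.36). Zfp786 was the highest of these, with 22.8, 10.1 and 19.9 in HP1ag_KO, 12.8 in HP1ab_KO and 12.8 and 7.74 in HP1a_KO, against 9.78, 3.81 and 8.43 in WT, and it is one of the genes whose WT mean was under 10.

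The cluster of 9 genes on chromosome 7, between 127244274 and 127885996, held 4 KRAB genes. Its median was 0.064 in HP1ag_KO and 0.12 in HP1a_KO, both against WT, and in HP1ag_KO against HP1a_KO it was -0.054 with 4 of 9 genes higher. Zfp668 was the highest in HP1ag_KO against WT at 0.29 and Zfp689 the lowest at -0.26. On chromosome 8, between 69209038 and 69791178, 6 KRAB genes had a median of 0.11 in HP1ag_KO and -0.063 in HP1a_KO, both against WT. In that cluster Zfp964 was the highest in HP1ag_KO at 0.34 and Zfp869 the lowest at -0.042.

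Against WT, transcripts of the proteins through which KRAB zinc finger proteins act were split between higher and lower in HP1ag_KO and HP1a_KO. More were lower in HP1ab_KO. Of 28 tested rows for genes of the TRIM28 complex and linked silencers, among which Atf7ip has 2 rows under different IDs, 14 were higher in HP1ag_KO than in WT (median -0.0011), 10 in HP1ab_KO (-0.15) and 14 in HP1a_KO (-0.0013), and limma called 0 of them in each (0% of all genes tested). HP1ab_KO lay above the WT range for 3 of the 28 rows and below it for 13, against 22.6% and 24.8% of all genes tested. HP1a_KO lay wholly above WT for 2 and wholly below for 7, against 14.7% and 15.1%. HP1ag_KO lay wholly above WT for 2 and wholly below for 4, against 6.46% and 7.05%. DESeq2 called Cbx3 and Cbx5 in HP1ag_KO, Cbx1 in HP1ab_KO and Cbx5 in HP1a_KO, which are the deleted genes, and no other of the list. Trim28, which encodes the corepressor itself, differed by 0.072 in HP1ag_KO against WT, and Setdb1, which encodes the H3 lysine 9 methyltransferase, by 0.033. Trim24, which encodes a TRIM28 relative that limits liver tumours in mice, had a log2 difference of 0.73 (limma, adjusted p = 0.569). Trim24 had 1336, 855 and 1335 in HP1ag_KO, 857 in HP1ab_KO and 1171 and 889.5 in HP1a_KO, against 742, 779 and 579.6 in WT. The list includes Cbx1, Cbx3 and Cbx5 themselves.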

How the data were processed

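Total RNA depleted of ribosomal RNA was sequenced from 9 livers as strand-specific libraries, per the labels' protocols. Tools listed in the submitters' processing notes, with no role stated, are HTSeq 0.5.4p3, DESeq2 1.0.19, Bowtie2 2.1.0, CASAVA 1.8.2 and TopHat2 2.0.10, and the build there is mm10 (GRCm38). The deposited signal values were read counts divided by a size factor (0.545 to 1.25), since dividing by the worth of 1 read gave whole numbers within 0.1 for 100% of values; total reads are sums of these recovered counts. A count of 0 reads allows up to 3 reads, and this limit covers counting error only.

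Genes with a mean of at least 10 (13845) were tested with limma 3.58.1 (R 4.3.3) on log2(value + 1), with all 4 groups in 1 fit and Benjamini-Hochberg adjustment over all genes at 0.05, so fold changes of low genes are understated. For HP1ab_KO, with 1 library, the spread was taken from the remaining groups. Alternatives included edgeR 4.0.16 and DESeq2 1.42.0 on the recovered counts, other scalings, filters and pseudocounts, and leaving out each replicate. The tests were also run on simulated data with the same setting of spread for all genes, which does not show how they behave on these livers. Gene models came from GENCODE IDs in the reference, which matched 98.0% of rows, and an open reading frame was scanned for fingers and a KRAB box.

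The genes, lists and tests were chosen with earlier results of these data known. Named genes were those whose libraries did not overlap between the groups of a comparison, ranked by unadjusted p (up to 6 in each direction for HP1ag_KO against WT and up to 4 otherwise), any gene called by a tool, the 5 highest and 3 lowest per kb, 3 on each side of the level limit, the extremes of each cluster, the targeted genes, and genes with known roles. Where the labels number animals, no pairing across groups is given.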

Additional observations from a re-analysis of the deposited data

How the results depend on the processing

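Direction of the median over the 125 genes held in each comparison under all alternatives run. Scaling to equal totals gave medians of 0.17 for HP1ag_KO against WT, -0.12 for HP1a_KO against WT and 0.34 for HP1ag_KO against HP1a_KO, and it shifted the median of all genes by up to 0.094. DESeq2 gave a median of -0.11 for HP1a_KO against WT, and a filter at a mean of 50 gave 0.12 for HP1ab_KO against WT. DESeq2 called 99 genes in HP1ag_KO against WT, 87 in HP1a_KO against WT, 11 in HP1ab_KO against WT and 457 in HP1ag_KO against HP1a_KO, of which 1 in the first and 2 in the last are among the 125. With limma, a pseudocount of 5 called 1 gene in HP1a_KO against WT and no filter called 54 in HP1ab_KO against WT. Leaving out each replicate gave medians of 0.080 to 0.14 for HP1ag_KO against WT, -0.12 to -0.028 for HP1a_KO against WT, 0.13 to 0.19 for HP1ab_KO against WT and 0.20 to 0.24 for HP1ag_KO against HP1a_KO, with 0 to 2, 0 to 5, 0 to 2 and 0 to 5 genes called in that order. The lowest HP1a_KO value came without HP1a_KO replicate 1 and the highest without replicate 2. DESeq2 fits that left out each replicate, chosen after seeing the data, called 40 to 95 genes in HP1ag_KO against WT (0 to 1 of the 125) and 29 to 466 in HP1ag_KO against HP1a_KO (0 to 5 of the 125), with 29 and 71 without HP1a_KO replicates 1 and 2, and 126 and 202 without HP1ag_KO replicates 2 and 3. The 5 came without HP1ag_KO replicate 1 and were Zfp759, Zfp760, Zfp799, Zfp937 and Zfp945, while 0 of the 125 were called without either HP1a_KO replicate. Of 584 alternative values for named genes 576 kept their direction and side of the threshold, 3 passed it with DESeq2 and 5 reversed. Zfp644 ranged from -0.0041 without WT replicate 1 to 0.15 without WT replicate 3 in HP1ag_KO against WT, and reversed also to -0.023 with a term for runs of animal numbers. Zfp746 reversed to -0.0091 and -0.067 without WT replicates 2 and 3 and to -0.022 without HP1ag_KO replicate 1. The cause was not tested. With 1 to 3 livers in a group, the number of animals limits these comparisons. With a term for runs of animal numbers, the median for HP1ag_KO against WT was 0.10, with 84 of the 125 genes higher. WT replicate 1 stood alone in its run, so with this term it did not inform the difference. Leaving out that liver without the term gave a median of 0.080, also with 84 higher. The HP1a_KO animals shared no run of numbers with another group, and the HP1ab_KO animal stood alone. Differences that involve these groups cannot be told apart from the runs. The labels do not say that these numbers pair animals.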
